A study of Mus musculus with 30 samples.

Results

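Growth hormone acts on the liver through the transcription factor STAT5, and 10 genes known for their dependence on this axis were followed here: Hsd3b5, Elovl3, Selenbp2, Mup3, Mup20, Mup21, Cyp4a12a, Socs2, Igf1 and Igfals. They were taken by symbol from a table of raw counts and are 10 of its 55335 genes. All 10 passed the filter on low counts and were tested in every comparison. They were chosen by the change of measured counts after CDDO-Me in wild-type mice, with earlier results of the same libraries known. The values of that response are therefore given as a description, without a test. Tests are given for the responses of the mutants and, with the limits stated there, for the differences between genotypes.

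RNA-seq was performed on livers of male mice, 7 to 10 weeks old, all on the albino C57BL/6J background. The genotypes were wild-type mice, mice homozygous for the Keap1 C151S knock-in (C151S), and Nrf2-knockout mice. Each genotype received 1 oral dose of CDDO-Me at 30 µmol/kg or the vehicle (DMSO and Cremophor-EL in PBS), and livers were taken after 24 hours, with 5 mice in each of 6 groups and 30 libraries in all. CDDO-Me (bardoxolone methyl) is a synthetic triterpenoid that activates the transcription factor NRF2. In the C151S mice, a cysteine of the NRF2 inhibitor KEAP1 is replaced by serine in every cell of the body, and the Nrf2-knockout mice lack the factor in every cell. The wild-type mice came from a supplier, whereas homozygous mutants were mated with each other to give the mutant mice, so that genotype and colony cannot be told apart.

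In male rodents, the pituitary releases growth hormone in pulses. The hormone binds its receptor (GHR) on hepatocytes, the kinase JAK2 phosphorylates STAT5, mainly STAT5b in liver, and STAT5 enters the nucleus and drives both general growth genes (Igf1, Igfals, Socs2) and a male pattern of metabolic and secreted proteins (Hsd3b5, Elovl3, Selenbp2, Cyp4a12a and the major urinary proteins). SOCS2 and CISH are induced by STAT5 and dampen the signal, and BCL6 and CUX2 are repressors that shape the male and female patterns. A steady, female-like hormone profile lowers the male genes and raises a female set.

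Each library held between 23667068 and 42073169 counts on genes. Nfe2l2, the gene of NRF2, had 22.4 to 39.8 CPM (counts scaled to library size with the trimmed mean of M values) in the 10 Nrf2-knockout libraries, below the 47.9 to 71.0 CPM of the 10 wild-type libraries. The transcript was thus still counted, and the amino acid change of C151S cannot be seen in gene counts. Nqo1, a direct NRF2 target, had 48.3 to 109 CPM in CDDO-Me-treated wild-type mice, 4.51 to 9.23 CPM with vehicle, 5.56 to 8.11 CPM in CDDO-Me-treated C151S mice and 1.88 to 3.41 CPM in CDDO-Me-treated Nrf2-knockout mice. Albumin (Alb), the defining product of hepatocytes, had 48416 CPM or more in every library. Summed markers of 5 other cell classes were each far lower, from 1.79 CPM (lymphocytes and neutrophils) to 388 CPM (stellate cells). In whole liver, fewer cells of a type and less RNA per cell cannot be told apart. Arntl, a core clock gene, was split: 11 mutant libraries (5 C151S and 6 Nrf2-knockout) had log2 CPM of -1.13 to 0.90, and the other 19, with every wild-type library among them, had 2.52 to 4.79.

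Per kb of exon, the 10 genes covered a wide range in vehicle-treated wild-type livers. Mup3 was highest at 7339 CPM per kb, followed by Mup20 at 2297 and Mup21 at 396 CPM per kb. Selenbp2 (224), Elovl3 (156), Hsd3b5 (155) and Cyp4a12a (136) lay close together. The growth genes were lower, at 50.7 CPM per kb for Igf1, 34.0 for Igfals and 1.90 for Socs2.

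Hsd3b5 (GRCm38 chr3:98618634-98630252, minus strand) encodes a hydroxysteroid dehydrogenase of male liver that reduces steroids. With vehicle, the wild-type mice had 192, 159.9, 323, 204 and 321 CPM, and with CDDO-Me they had 37.8, 54.2, 74.2, 83.0 and 50.6 CPM. Every treated wild-type mouse lay below every vehicle-treated one. The C151S mice had 91.0, 64.3, 108, 174 and 71.9 CPM with vehicle and 41.5, 16.8, 87.5, 26.8 and 32.5 CPM with CDDO-Me, and 4 of the 5 treated mice lay below the lowest vehicle value. The Nrf2-knockout mice had 232, 105, 18.7, 59.9 and 266 CPM with vehicle and 122, 2.10, 13.04, 53.5 and 21.04 CPM with CDDO-Me. Both Nrf2-knockout groups were wide and overlapped, with 2 of the 5 treated mice below the lowest vehicle value. The group means were, in order, 240.1 ± 76.8 CPM (SD, n = 5) in wild-type with vehicle, 136 ± 108 in Nrf2-knockout with vehicle, 102 ± 43.8 in C151S with vehicle, and 60.0 ± 18.3, 42.4 ± 48.6 and 41.0 ± 27.5 in the treated wild-type, Nrf2-knockout and C151S mice. The 3 treated groups came last and did not differ from each other beyond their spread.

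Elovl3 (GRCm38 chr19:46131897-46135694, plus strand), an elongase of very-long-chain fatty acids, had 275, 397, 344, 187 and 334 CPM in wild-type mice with vehicle and 58.2, 48.7, 140.2, 103 and 40.2 CPM with CDDO-Me. The 2 wild-type groups did not overlap. In C151S mice, it had 74.4, 29.7, 129, 28.8 and 18.5 CPM with vehicle and 45.4, 18.6, 21.9, 1.70 and 1.54 CPM with CDDO-Me, so that 2 treated mice, replicates 4 and 5, lay far below all others of the genotype. In Nrf2-knockout mice, it had 89.1, 21.3, 4.13, 45.2 and 218 CPM with vehicle and 28.5, 12.99, 4.05, 24.5 and 24.3 CPM with CDDO-Me. The treated Nrf2-knockout mice stayed under 30 CPM, whereas the vehicle-treated ones ran from near the bottom of that range to 218 CPM.

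Selenbp2 (GRCm38 chr3:94693556-94704413, plus strand) encodes a selenium-binding protein of male liver. It had 308, 478, 798, 276 and 681 CPM in wild-type mice with vehicle and 74.8, 82.4, 110.5, 109 and 152 CPM with CDDO-Me, without overlap. In C151S mice, it had 208, 117, 252, 460 and 251 CPM with vehicle and 77.3, 57.4, 163, 68.0 and 57.4 CPM with CDDO-Me, and the third treated mouse was the single one within the range of the vehicle group. In Nrf2-knockout mice, it had 866, 616, 218, 93.4 and 296 CPM with vehicle and 709, 15.6, 110.2, 145 and 74.3 CPM with CDDO-Me. Replicate 1 of the treated Nrf2-knockout mice was above 4 of the 5 vehicle-treated ones, and replicate 2 was the lowest of all 30 mice. Its paralog Selenbp1, by contrast, had a log2 fold change of 0.61 ± 0.11 (SE) in the wild-type response, called higher.

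Cyp4a12a (GRCm38 chr4:115299046-115332815, plus strand), a male cytochrome P450 that hydroxylates fatty acids, had 326, 309.8, 418, 243 and 353 CPM in wild-type mice with vehicle and 252, 189.7, 249.4, 188 and 211 CPM with CDDO-Me. The ranges overlapped, with 3 of 5 treated mice below the lowest vehicle value. In C151S mice, it had 188, 113, 189, 169 and 166 CPM with vehicle and 107, 87.1, 129, 117 and 70.3 CPM with CDDO-Me. In Nrf2-knockout mice, it had 205, 105, 36.0, 65.2 and 179 CPM with vehicle and 189, 36.4, 35.4, 61.8 and 36.9 CPM with CDDO-Me. Of the 5 treated Nrf2-knockout mice, 4 lay at 61.8 CPM or lower and replicate 1 stood apart. The near-identical neighbour Cyp4a12b had fitted values of the same sign in all 3 genotypes, at -0.82, -0.91 and -0.55 on the log2 scale, for wild-type, then C151S, then Nrf2-knockout. None was called by edgeR, whereas DESeq2 called the first 2. Because reads with more than 1 position were not counted, each of the 2 copies is counted in part.

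Mup3, Mup20 and Mup21 encode major urinary proteins, lipocalins that the male liver secretes and the kidney passes into urine as carriers of pheromones; MUP20 is also known as darcin. They lie on the minus strand of chromosome 4, Mup20 at GRCm38 chr4:62050234-62054158, Mup3 at GRCm38 chr4:62083476-62087342 and Mup21 at GRCm38 chr4:62147932-62150863. Their family holds many near-identical copies, so that their counts are partial as well. The upstream sequences of Mup21 and Mup3 are shown, from RefSeq on GRCm38.p6, as close relatives whose log2 fold changes in the wild-type response were -0.76 and -0.32; the difference between them was not tested. Each run gives the 250 bases before the start site, 5′ to 3′ on the minus strand, at chr4:62150842-62151091 for Mup21 and chr4:62087318-62087567 for Mup3. The capitals mark the only match to TGACNNNGC, the core of the antioxidant response element to which NRF2 binds, searched on both strands.

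Mup21: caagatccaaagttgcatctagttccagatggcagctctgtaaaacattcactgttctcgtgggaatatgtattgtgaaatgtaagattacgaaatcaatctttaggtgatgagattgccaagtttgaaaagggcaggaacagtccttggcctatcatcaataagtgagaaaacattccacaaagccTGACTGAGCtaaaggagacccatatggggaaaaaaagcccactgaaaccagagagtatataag

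Mup3: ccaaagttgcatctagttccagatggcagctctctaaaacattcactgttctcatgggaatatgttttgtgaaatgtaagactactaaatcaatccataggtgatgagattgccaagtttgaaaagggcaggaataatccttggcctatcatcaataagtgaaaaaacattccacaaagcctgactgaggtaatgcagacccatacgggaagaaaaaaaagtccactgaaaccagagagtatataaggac

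Over the 300-base windows that reach 50 bases past the start site, the sequences aligned with 276 identical positions of 306 columns (90.2%). The match in Mup21 starts 63 bases before the start site. In all, 12.39% of the 32851 promoter windows of this length held such a match, as did 13.99% of the 27025 genes with a window. RefSeq windows were found for 6 of the 10 genes, and Mup21 was the 1 of the 6 with it. The window of Hsd3b5, at chr3:98645485-98645784, lay upstream of the gene position given above. The bases next to the start of that position were therefore not searched. The match in Mup21 is a description of the letters and not a binding site.

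Mup21 had 276, 290.4, 245, 259 and 268 CPM in wild-type mice with vehicle and 176, 129, 188, 146 and 154 CPM with CDDO-Me. It was the most even of the 10 genes in vehicle-treated wild-type mice, with a coefficient of variation of 6.34%, and the 2 groups did not overlap. In C151S mice it was low with either treatment, at 117, 66.1, 75.9, 118 and 102 CPM with vehicle and 160.4, 52.0, 111, 41.9 and 63.4 CPM with CDDO-Me. In Nrf2-knockout mice it had 433, 181, 71.6, 184 and 202 CPM with vehicle and 341, 77.5, 98.2, 159 and 130 CPM with CDDO-Me, and no treated mouse lay below the lowest vehicle value.

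Mup20 had 1438, 2511, 2514, 2278 and 1916 CPM in wild-type mice with vehicle and 1073, 998, 1772, 1040.3 and 1957 CPM with CDDO-Me, and 3 of the 5 treated mice lay below the vehicle range. In C151S mice it had 1162, 1321, 1427, 1687 and 1721 CPM with vehicle and 968, 995, 979.6, 1064 and 977 CPM with CDDO-Me. The treated C151S mice were nearly equal, and all lay below all 5 vehicle-treated ones. In Nrf2-knockout mice it had 1361, 958, 392, 413 and 880.3 CPM with vehicle and 1539, 636, 558, 304 and 232 CPM with CDDO-Me, and the highest value of both groups was that of a treated mouse.

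Mup3 had 8802, 5719.6, 7929, 8250.5 and 8492 CPM in wild-type mice with vehicle and 6291, 6247, 7192, 7334 and 4488 CPM with CDDO-Me. The other 4 groups had means of 5114 ± 2159.9, 4430.2 ± 1823, 5013 ± 2370.5 and 3580.4 ± 1626 CPM (SD, n = 5 each) in C151S with vehicle, C151S with CDDO-Me, Nrf2-knockout with vehicle and Nrf2-knockout with CDDO-Me. Vehicle and treated mice overlapped in every genotype.

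Socs2 (GRCm38 chr10:95385362-95417180, minus strand), the STAT5-induced inhibitor of the receptor, had 14.2, 15.0, 23.04, 7.51 and 30.8 CPM with vehicle and 6.50, 10.1, 13.2, 17.6 and 10.9 CPM with CDDO-Me in wild-type mice. In C151S mice it had 28.0, 28.7, 28.5, 11.1 and 10.5 and 11.2, 16.2, 9.51, 19.1 and 21.2 CPM, and in Nrf2-knockout mice 7.41, 12.8, 16.3, 30.3 and 20.9 and 26.6, 15.3, 15.0, 21.1 and 13.9 CPM, with vehicle and CDDO-Me. The groups overlapped in every genotype. Within C151S mice the vehicle values fell into 28.0 to 28.7 CPM in replicates 1 to 3, which had high Arntl, and 10.5 to 11.1 CPM in replicates 4 and 5, which had low Arntl.

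Igf1 (GRCm38 chr10:87858265-87937042, plus strand), the circulating growth factor, had 443 to 638 CPM over all 30 mice. Its group means ran from 476 ± 16.2 CPM in CDDO-Me-treated wild-type mice to 583 ± 46.4 CPM in vehicle-treated C151S mice (SD, n = 5 each). Igfals (GRCm38 chr17:24865997-24882010, plus strand), the acid-labile subunit that holds IGF1 in its serum complex, had group means from 96.3 ± 12.4 CPM to 108 ± 10.8 CPM (SD, n = 5 each), and none of its neighbours in that order differed beyond their spread.

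The upstream sequence of Igfals is shown because it was the 1 gene of the 6 with a RefSeq window that held TTCNNNGAA, the palindrome to which STAT5 dimers bind. The run gives the 250 bases before the second of its 3 start sites, 5′ to 3′ on the plus strand, at chr17:24877981-24878230 (RefSeq, GRCm38.p6). The capitals mark the palindrome, which starts 58 bases before the start site.

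Igfals: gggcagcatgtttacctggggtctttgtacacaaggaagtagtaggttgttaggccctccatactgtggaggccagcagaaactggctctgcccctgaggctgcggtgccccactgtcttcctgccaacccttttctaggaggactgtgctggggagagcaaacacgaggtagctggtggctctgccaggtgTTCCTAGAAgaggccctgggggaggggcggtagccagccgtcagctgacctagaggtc

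A match of the same kind, TTCTCAGAA, lay 236 bases before the first start site of Igfals. Such matches were present in 8.298% of the 32851 windows and in 9.554% of the 27025 genes with a window. No match in a window says only that these letters are not within it.

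**Figure D1:**
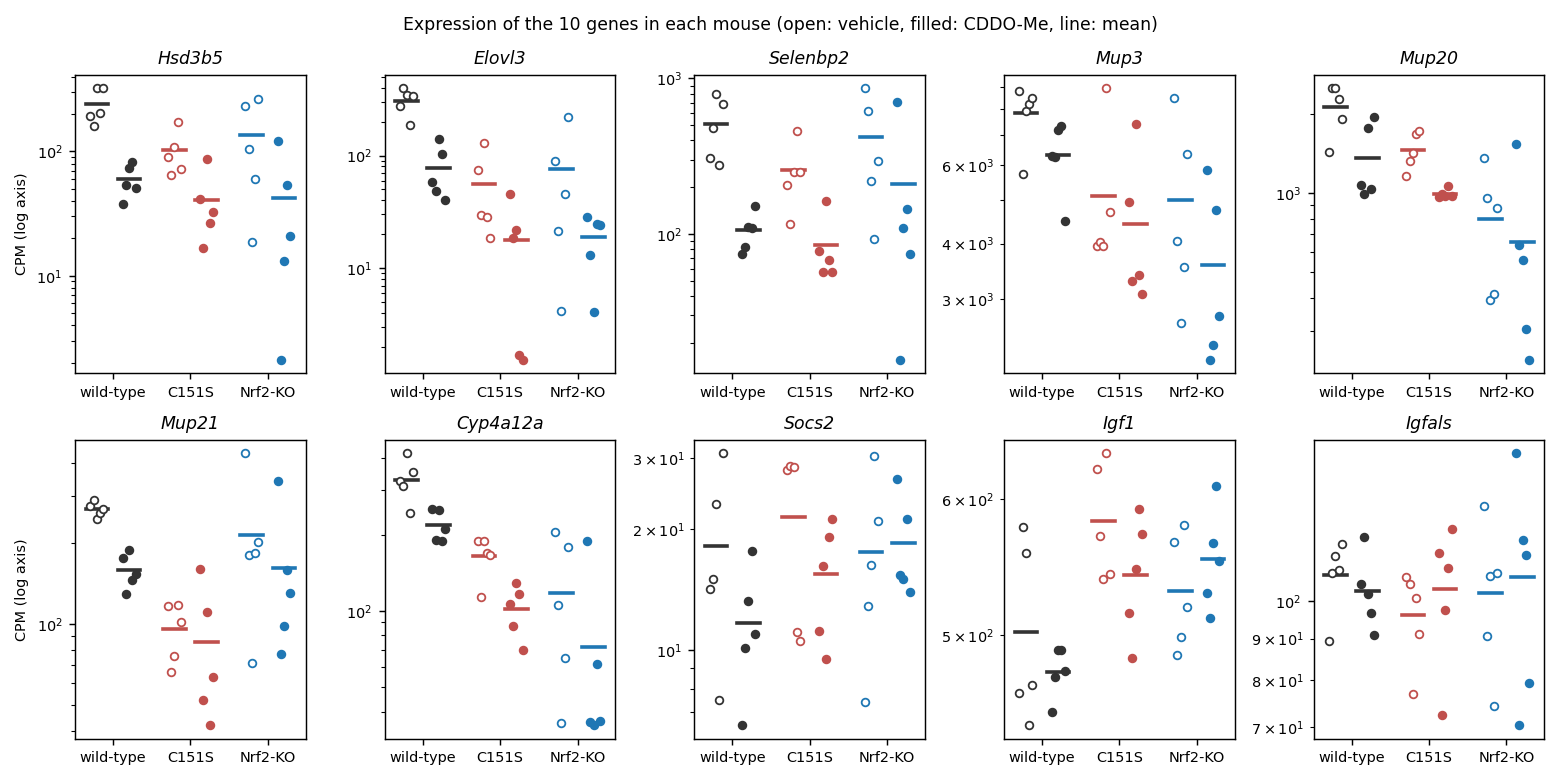
CPM (log axis) of each of the 10 genes in each mouse, by genotype (KO, knockout), with open circles for vehicle, filled circles for CDDO-Me and lines for the mean of 5 mice. Treated and vehicle-treated wild-type mice do not overlap for Hsd3b5, Elovl3, Selenbp2 and Mup21, the Nrf2-knockout groups are wide, and Igf1 and Igfals stay within narrow ranges.

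The first question was how large the differences after CDDO-Me were in each genotype. In wild-type mice, whose response chose the genes, the log2 fold change was -2.27 ± 0.30 (SE) for Selenbp2, -2.01 ± 0.24 for Hsd3b5, -1.99 ± 0.32 for Elovl3, -0.76 ± 0.10 for Mup21 and -0.61 ± 0.14 for Cyp4a12a. These 5 lay past the thresholds used for calls below (edgeR, with a false discovery rate, FDR, under 0.05 and a log2 fold change of -0.5 or lower), as did 1.1% of all 13697 genes. Because the genes were chosen on these values, the count is no test and nothing is read from it. The other 5 had -0.65 (Mup20), -0.64 (Socs2), -0.32 (Mup3), -0.085 (Igf1) and -0.072 (Igfals). The 4 genes whose treated values all lay below the vehicle values, beside 2.09% of 15010 genes, are likewise a description. In a single fit of all 30 libraries, which shares one spread over the wider mutant groups, the count went from 5 to 0, with an SE of 0.66 instead of 0.24 for Hsd3b5. When each mouse in turn was left out, the count was 4 to 6, and Cyp4a12a was past the thresholds in 5 of the 10 fits.

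In C151S mice, 9 of the 10 genes had a lower fitted value after CDDO-Me and none was called by edgeR, beside 0.0779% of 14128 genes called lower. The value was -1.67 ± 0.86 (SE) for Elovl3, -1.61 ± 0.37 for Selenbp2, -1.32 ± 0.41 for Hsd3b5, -0.70 ± 0.18 for Cyp4a12a and -0.56 ± 0.12 for Mup20. Hsd3b5, Selenbp2, Mup20 and Cyp4a12a had an unadjusted edgeR p under 0.05, with an FDR of 0.347, 0.272, 0.230 and 0.333. DESeq2 called 3 of them, Selenbp2 (adjusted p = 0.00282), Mup20 (adjusted p = 0.00113) and Cyp4a12a (adjusted p = 0.0438). The share of all genes that DESeq2 called in C151S mice is not given here, so this count is a description. Mup20 was the single gene without overlap of treated and vehicle mice, beside 1.35% of all genes.

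In Nrf2-knockout mice, 7 of the 10 genes had a lower fitted value after CDDO-Me. None was called by edgeR or DESeq2. Of all 14474 genes, edgeR called 0 (0% lower), with 1136 at an unadjusted p under 0.05, and DESeq2 called 55. The value was -2.003 ± 0.82 for Elovl3, with a 95% interval of -3.81 to -0.20 and an FDR of 0.602, and it was the 1 gene with an unadjusted p under 0.05. Hsd3b5 had -1.69 ± 0.90, Selenbp2 -0.99 ± 0.84 and Cyp4a12a -0.72 ± 0.56. The Hsd3b5 value was -2.60 without replicate 1 of the treated mice and -1.29 without replicate 5 of the vehicle-treated mice, the lowest and highest of the 10 fits that each left out 1 mouse. No gene separated the treated from the vehicle-treated mice, beside 0.673% of all genes. The SE exceeded that of wild-type mice for 9 of the 10 genes.

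Averaged over both mutants, the 10 genes had a median log2 fold change of -0.39, beside -0.01 for all 15020 genes. Elovl3 had -1.83 ± 0.64 (edgeR FDR = 0.158), Hsd3b5 -1.50 ± 0.53 (FDR = 0.165), Selenbp2 -1.30 ± 0.50 (FDR = 0.191) and Cyp4a12a -0.71 ± 0.32 (FDR = 0.254). These 4 had an unadjusted p under 0.05. None of the 10 was called by edgeR or DESeq2, beside 0.246% of all genes called lower by edgeR. Of all genes, 0.16% had a value at or below that of Elovl3, 0.32% at or below that of Hsd3b5 and 0.52% at or below that of Selenbp2.

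The second question was whether the response needs NRF2, which was tested as the difference between the responses of wild-type and mutant mice in a fit of all 30 libraries. The wild-type libraries in this contrast are those that chose the genes. None of the 10 genes passed an FDR of 0.05 in edgeR or in DESeq2, against either mutant, and none had an unadjusted edgeR p under 0.05. Of all 15010 genes, 0.266% passed for wild-type against Nrf2-knockout mice and 0.48% for wild-type against C151S mice. The wild-type minus Nrf2-knockout difference was -0.32 ± 0.90 for Hsd3b5, with a 95% interval of -2.17 to 1.54. It was 0.022 ± 1.07 for Elovl3, with an interval of -2.17 to 2.21, and -1.28 ± 0.87 for Selenbp2, with an interval of -3.06 to 0.51. For all 10 genes, and against both mutants, the interval of the difference held 0 and also held the entire wild-type response. In the fits of each mutant alone, the 95% interval of the response lay below 0 for 4 of the 10 genes in C151S mice (Hsd3b5, Selenbp2, Mup20 and Cyp4a12a) and for 1, Elovl3, in Nrf2-knockout mice. Over the 30 fits that each left out 1 mouse, the wild-type minus Nrf2-knockout difference ran from -0.71 to 0.60 for Hsd3b5 and from -1.73 to 0.00606 for Selenbp2. Both upper ends came without replicate 1 of the treated Nrf2-knockout mice.

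Direct NRF2 targets were set beside the 10 genes in the same contrasts. All 6 that were taken (Nqo1, Gstm1, Cbr3, Srxn1, Gclm and Txnrd1) passed against both mutants. Of all genes, 0.266% passed against Nrf2-knockout and 0.48% against C151S mice. These 6 were listed with earlier results of these data known, so their passing is a description and no test of the contrasts. Cbr3, a carbonyl reductase, had a wild-type minus Nrf2-knockout difference of 5.33 ± 0.42, and Gclm, a subunit of the enzyme that starts glutathione synthesis, had 0.58 ± 0.13. The SE of these targets was 0.13 to 0.42, whereas that of Hsd3b5, Elovl3 and Selenbp2 was 0.87 to 1.08. Between the 2 mutants, the C151S minus Nrf2-knockout difference was 0.37 ± 0.91 for Hsd3b5 and -0.62 ± 0.87 for Selenbp2. None of the 10 genes passed in edgeR or DESeq2, none had an unadjusted p under 0.05, and 0.0133% of all genes passed in edgeR.

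**Figure D2:**
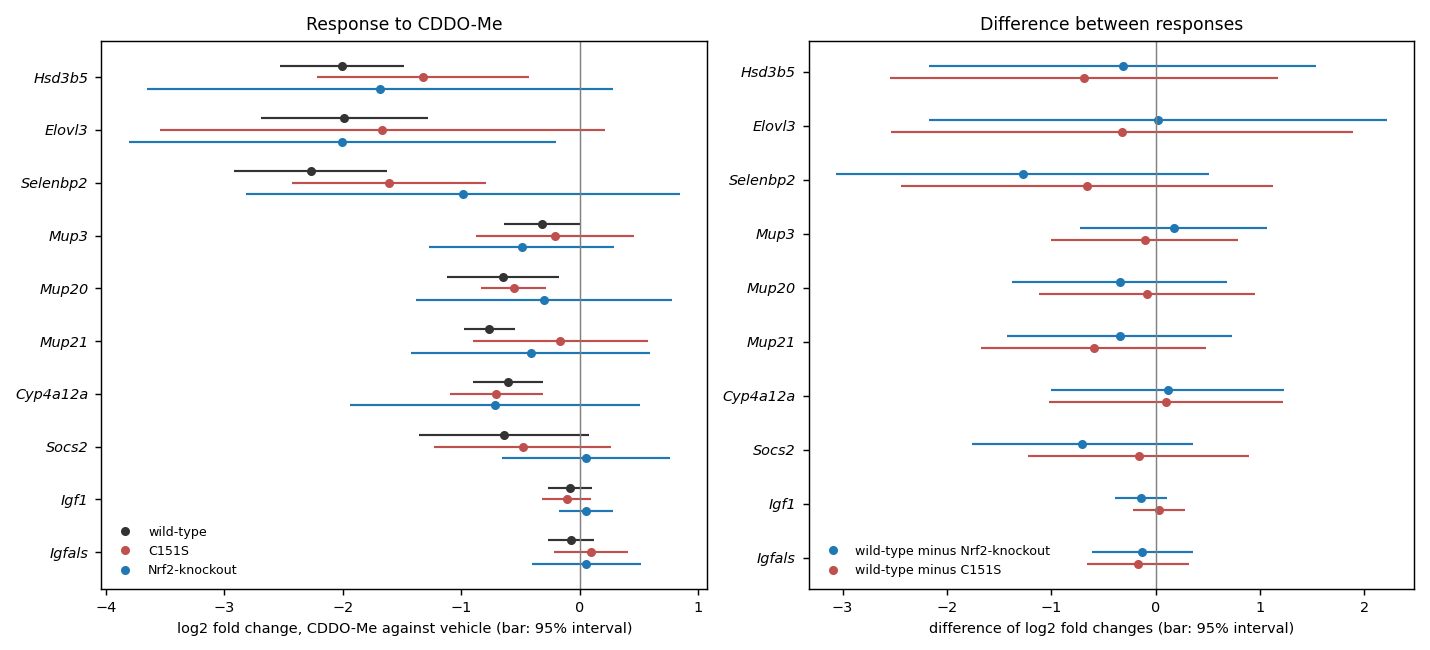
Left, log2 fold change after CDDO-Me for the 10 genes in each of the 3 genotypes. Right, the difference between the wild-type response and that of each mutant on the log2 scale. Points are fitted values and bars 95% intervals (5 mice per group). The 3 genotypes have low values for Hsd3b5, Elovl3 and Selenbp2 on the left, and every interval on the right crosses 0.

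Vehicle-treated mutants had lower measured levels of several of these genes than vehicle-treated wild-type mice. A choice by the change from these same wild-type libraries can favour genes that were high in them, so the calls here are a description. Relative to vehicle-treated wild-type mice, whose libraries also entered the choice of the genes, 4 of the 10 were called lower in C151S mice, beside 2.25% of all 13946 genes: Elovl3 at -2.43 ± 0.49 on the log2 scale, Mup21 at -1.47 ± 0.15, Hsd3b5 at -1.23 ± 0.28 and Cyp4a12a at -0.98 ± 0.16. Without replicate 4 of the vehicle-treated C151S mice, which was high for Hsd3b5, Selenbp2 and Mup3, the count was 7. It was also 7 with the side of the Arntl split as a covariate, and 1 in the single fit of all libraries. In Nrf2-knockout mice, Cyp4a12a at -1.48 ± 0.38 and Mup20 at -1.40 ± 0.31 were called lower, 2 of the 10 beside 4.13% of 14030 genes. Elovl3 had -2.02 ± 0.73 there and was not called. Without replicate 2 of the Nrf2-knockout mice, or replicate 3 or 5 of the wild-type mice, or with the Arntl covariate, the count was 1.

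The treated wild-type libraries also entered the choice of the genes, so the calls between treated genotypes are likewise a description. After CDDO-Me, Cyp4a12a was called lower in C151S than in wild-type mice, at -1.08 ± 0.16, as the 1 gene of 10 beside 2.8% of 13844 genes. Cyp4a12a, at -1.58 ± 0.43, and Elovl3, at -2.03 ± 0.48, were called lower in Nrf2-knockout mice, 2 of 10 beside 4.85% of 13935 genes. Leaving out 1 library gave counts of 1 to 3 and of 1 to 4 in these comparisons. The highest counts came without replicate 1 of the treated C151S or Nrf2-knockout mice. The Nrf2-knockout count was 1 without any of the other 4 treated Nrf2-knockout mice or without replicate 1, 2, 3 or 4 of the treated wild-type mice.

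The genes of the receptor, the kinase and STAT5 itself were not called after CDDO-Me in any genotype. Their fitted values were all smaller than the log2 fold change of 0.5 that a call needs, so none could be called at any p. Ghr had a log2 fold change after CDDO-Me of -0.28 ± 0.11 in wild-type, -0.32 ± 0.17 in C151S and -0.34 ± 0.16 in Nrf2-knockout mice, and none was called. Stat5b had -0.38 ± 0.12, -0.37 ± 0.28 and -0.26 ± 0.14 in the same order, and none was called. Jak2 lay between -0.035 and 0.040, and Stat5a between -0.24 and -0.15, across the 3 genotypes. Cish, a rapid STAT5 target like Socs2, had 0.40 ± 0.42, -0.37 ± 0.37 and 0.92 ± 0.47, with no call. Of 25 genes of the hormone axis, 24 were tested. The 1 called after CDDO-Me in wild-type mice was the prolactin receptor gene Prlr, higher at 0.63 ± 0.12, beside 1.66% of all genes called higher. In wild-type mice 8 of the 24 had an unadjusted edgeR p under 0.05. In C151S and in Nrf2-knockout mice, edgeR and DESeq2 each called 0 of the 24 after CDDO-Me, with 4 and 2 at an unadjusted edgeR p under 0.05.

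With vehicle, 3 of the 24 genes of the axis were called in C151S mice, 1 lower and 2 higher, beside 2.25% of all genes called lower and 2.59% higher. In Nrf2-knockout mice 2 were called, 1 lower and 1 higher, beside 4.13% and 6.29%. In C151S mice, Bcl6 was called lower at -1.62 ± 0.40, and Prlr, at 0.74 ± 0.18, and Igfbp2, at 0.63 ± 0.17, were called higher. In Nrf2-knockout mice, the gene called higher was Igfbp3, of an IGF1-binding protein, at 1.198 ± 0.26. Of the cell type markers, 3 of 5 endothelial (Pecam1, Stab2 and Lyve1) and 2 of 5 stellate genes (Col1a1 and Des) were called higher in Nrf2-knockout mice. So were 2 of 6 lymphocyte and neutrophil genes (S100a8 and S100a9). Of the rest, 1 stellate and 2 lymphocyte and neutrophil genes had lower fitted values. Among hepatocyte markers 1 of 7 was called lower, and no Kupffer cell or cholangiocyte marker was called. Summed endothelial markers were 182 to 285 CPM beside 144 to 171 CPM in wild-type mice. Summed stellate markers overlapped, at 133 to 381 beside 144 to 200.1 CPM. In C151S mice all 5 endothelial markers had higher fitted values, with 0 called and sums of 157 to 243 CPM. Of 13 clock genes, Ciart was called higher in both mutants, and in Nrf2-knockout mice Per2 and Dbp were also called higher and Clock and Nfil3 lower. Of 11 genes of the feeding state, Cpt1a, of fatty acid oxidation, was called higher in both mutants and G6pc, of glucose release, lower in Nrf2-knockout mice. The part of these genes and cell types in the levels of the 10 genes was not tested.

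Other male and female genes of the liver gave a wider view of the same axis. After CDDO-Me, 14 of 16 male-biased genes had a lower fitted value in wild-type mice, 10 in C151S mice and 16 in Nrf2-knockout mice, with medians of -0.58, -0.11 and -0.50. Ugt2b38, a glucuronosyltransferase, was called lower in wild-type mice at -2.15 ± 0.33, as were Nudt7, Egfr and C6, beside 1.1% of all genes. Gstp1, a glutathione transferase, was called higher at 0.74 ± 0.09, beside 1.66% of all genes. The list was written with earlier results of these libraries known, so these calls are a description. EdgeR called 0 of the 16 in C151S and 0 in Nrf2-knockout mice, with 3 and 1 at an unadjusted p under 0.05. DESeq2 called 2 in C151S mice (Cyp4a12b and Ugt2b38) and 0 in Nrf2-knockout mice. Without the DESeq2 share of all genes in C151S mice, the count there is a description. Of the 22 Mup genes, which include Mup3, Mup20 and Mup21, 21 had a lower fitted value in wild-type mice, with a median of -0.67. In C151S mice 15 of the 19 that passed the filter had one, with a median of -0.20, and in Nrf2-knockout mice 18 of 19, with a median of -0.93.

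Of 18 female-biased genes, 9 passed the filter for the wild-type response and 12 for that of each mutant, so that the counts and medians are a description of those that passed. After CDDO-Me, 6 of 9 had a higher fitted value in wild-type mice, with a median of 0.89, 8 of 12 in C151S mice, with a median of 0.16, and 5 of 12 in Nrf2-knockout mice, with a median of -0.10. Acot3, at 1.54 ± 0.39, and Cyp39a1, a hydroxylase of bile acid synthesis, at 0.61 ± 0.13, were called higher in wild-type mice, beside 1.66% of all genes. In C151S and Nrf2-knockout mice edgeR and DESeq2 called 0, with 1 and 2 at an unadjusted edgeR p under 0.05. Of the 13 genes tested for a difference between the wild-type response and that of a mutant, 0 passed in edgeR or DESeq2 against either mutant, with 1 at an unadjusted edgeR p under 0.05 against each.

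With vehicle, 11 of the 18 female-biased genes passed the filter in the comparison of vehicle-treated C151S with wild-type mice and 10 in that of Nrf2-knockout mice. A gene near 0 in wild-type mice can pass through the mutant libraries alone, so counts over those that passed are a description. In C151S mice 4 were called higher, beside 2.59% of all genes, and in Nrf2-knockout mice 6 were, beside 6.29%. Cyp2a4, a female cytochrome P450, had 0.264, 4.08, 0.184, 0.251 and 0.177 CPM in vehicle-treated wild-type mice, 48.9, 184, 24.3, 4.75 and 269 CPM in C151S mice and 0.722, 34.2, 244, 26.2 and 0.337 CPM in Nrf2-knockout mice. The C151S values all lay above the wild-type ones, whereas 2 of the Nrf2-knockout values lay within the wild-type range. Cyp2b9, Cyp2c40 and Cyp17a1 were called higher in both mutants. The 16 male-biased genes had medians of -0.90 and -0.79, and Capn8 and Cyp7b1 were among the 5 called lower in each mutant, beside 2.25% of all genes in C151S and 4.13% in Nrf2-knockout mice, where Cyp7b1 had -1.60 ± 0.30 and -1.68 ± 0.50 in C151S and Nrf2-knockout mice. Of the 22 Mup genes, 21 passed the filter in C151S mice and 20 in Nrf2-knockout mice, a filter that the wild-type libraries alone can satisfy, and 3 and 8 were called lower, beside the same 2.25% and 4.13%. The 2 mutant comparisons share the wild-type libraries. All 30 libraries had Xist at 0.242 CPM or lower and expressed Ddx3y at 27.2 CPM or higher, as male samples do.

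**Figure D3:**
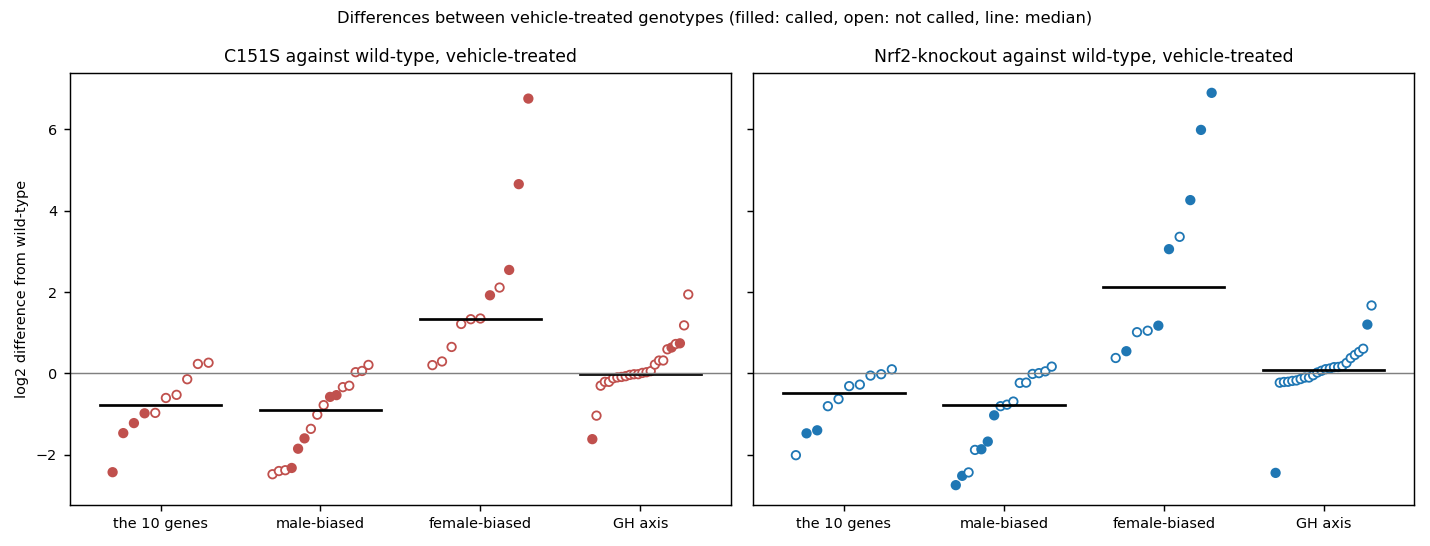
Log2 differences of vehicle-treated C151S (left) and Nrf2-knockout (right) mice from vehicle-treated wild-type mice for the 10 genes, 16 male-biased genes, the tested female-biased genes and 24 genes of the growth hormone (GH) axis. Filled circles were called, open ones were not, and lines are medians. Female-biased genes that passed the filter, which the mutant libraries alone can satisfy, lie above 0 in both mutants. The medians of the 10 genes and of the male-biased genes lie below 0.

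Acute phase genes are those that hepatocytes induce in inflammation. In wild-type mice 4 of 9 were called higher after CDDO-Me (Hp, Orm2, Lcn2 and Saa3), beside 1.66% of all genes. In each mutant all 9 had higher fitted values and 0 were called by edgeR or DESeq2, with 8 in C151S and 6 in Nrf2-knockout mice at an unadjusted edgeR p under 0.05. Over both mutants Lcn2 was called higher at 5.85 ± 1.15 (edgeR FDR = 0.033), though not by DESeq2, beside 0.0799% of all genes called higher by edgeR. Lcn2, encoding lipocalin 2, had 6.50, 4.80, 2.52, 39.5 and 3.18 CPM with vehicle and 525.7, 399, 56.1, 34.1 and 60.3 CPM with CDDO-Me in wild-type mice. In C151S mice it had 2.84, 4.34, 5.87, 9.50 and 6.59 CPM with vehicle and 2589, 35.9, 34.1, 12.3 and 78.1 CPM with CDDO-Me. In Nrf2-knockout mice it had 16.3, 4.19, 19.3, 17.3 and 4.31 CPM with vehicle and 22.5, 2012, 77.2, 7.79 and 36.4 CPM with CDDO-Me. Thus 1 treated mouse of each mutant was far above the rest, and the value over both mutants without these mice was not tested. The treated Nrf2-knockout mouse with 2012 CPM of Lcn2, replicate 2, had the lowest Hsd3b5 and the lowest Selenbp2 of all 30 mice. The treated C151S mouse with 2589 CPM, replicate 1, had the second highest Hsd3b5 of its group. The part of the acute phase in the levels of the 10 genes was not tested.

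The mice of a group also differed among themselves, and this variation was measured as the Pearson correlation with Hsd3b5 over the 30 libraries of log2 CPM less the group mean, which removes genotype and treatment. The correlation was r = 0.82 for Mup3 (Spearman's rho = 0.83), r = 0.81 for Selenbp2 (rho = 0.72), r = 0.79 for Cyp4a12a (rho = 0.70), r = 0.76 for Mup21 (rho = 0.65) and r = 0.51 for Elovl3 (rho = 0.55). In a permutation test within groups, two-sided, with adjustment over the 12 relations examined, p was 0.00012 for Mup3, 0.0018 each for Selenbp2, Cyp4a12a and Mup21, and 0.036 for Elovl3. The raw p-values were 1e-05, 0.00049, 0.00059, 0.00041 and 0.015 in that order, where 1e-05 is the smallest the permutations can give, and those of rho were 2e-05, 0.00013, 0.00068, 0.0014 and 0.0076. Without replicates 1 and 2 of the treated Nrf2-knockout mice, which were farthest from the median of Hsd3b5, r was 0.83, 0.62, 0.77, 0.69 and 0.61.

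The other 4 genes did not pass this test. Igfals had r = 0.54 (rho = 0.35, permutation p = 0.040 and 0.13, adjusted p = 0.068), which fell to 0.25 without those 2 mice. Mup20 had r = 0.37 (rho = 0.24, adjusted p = 0.31), Igf1 r = 0.26 (rho = 0.29, adjusted p = 0.23) and Socs2 r = 0.06 (rho = 0.10, adjusted p = 0.74) in the same permutation test. Lcn2 had r = -0.49 (permutation test, adjusted p = 0.068) and rho = -0.48 (adjusted p = 0.043), so that only its rank correlation was under 0.05. Without those 2 mice, its r was -0.25. Saa1 had r = -0.41 (rho = -0.37, adjusted p = 0.13 and 0.16) and Arntl r = -0.20 (rho = -0.17, adjusted p = 0.41 and 0.47) in the same test. Within genotypes, Lcn2 had r = -0.65 in the 10 wild-type, 0.21 in the 10 C151S and -0.81 in the 10 Nrf2-knockout libraries. In the same order they were 0.54, 0.84 and 0.90 for Mup3, 0.59, 0.86 and 0.82 for Selenbp2, 0.22, 0.54 and 0.85 for Cyp4a12a, 0.50, 0.27 and 0.67 for Elovl3 and -0.25, 0.64 and 0.87 for Mup21. For Socs2 they were 0.79, -0.49 and 0.12, so that its value over all 30 libraries pools relations of opposite sign. The differences between genotypes in r were not tested. Within the 19 libraries with high Arntl and the 11 with low Arntl, r was 0.71 and 0.89 for Mup3, 0.78 and 0.86 for Selenbp2 and 0.65 and 0.90 for Cyp4a12a, with the same sign on both sides of the Arntl split.

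Among all 15010 genes, Mup3 ranked ninth by this likeness. The genes most like Hsd3b5 outside the 10 were C1ra (r = 0.89) and C1s1 (r = 0.86), which encode proteases of the complement system, Ces1e (r = 0.87), a carboxylesterase, Slc39a4 (r = 0.86), a zinc transporter, and Gm35696 (r = 0.86). The least like were Bmper (r = -0.83), Akr1b7 (r = -0.79), Sfxn2 (r = -0.79), the leptin receptor gene Lepr (r = -0.78) and Cyp17a1 (r = -0.77), the last of which is one of the female-biased genes. These values describe the 30 libraries and share their depth and scaling.

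**Figure D4:**
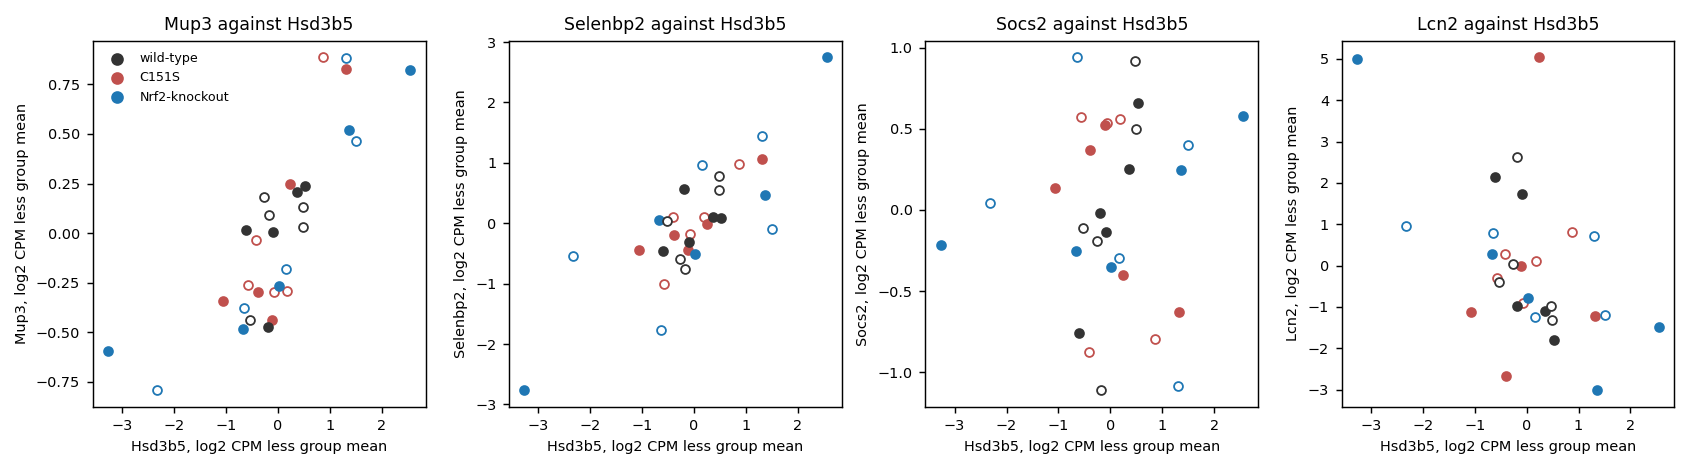
Log2 CPM less the group mean of Mup3, Selenbp2, Socs2 and Lcn2 against that of Hsd3b5 in each of the 30 libraries (open circles, vehicle; filled circles, CDDO-Me; colour, genotype). Mup3 and Selenbp2 increase with Hsd3b5 (r = 0.82 and 0.81), Socs2 has r = 0.06 over all libraries but 0.79 in wild-type and -0.49 in C151S mice, and Lcn2 scatters with r = -0.49.

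Within the 2 sides of the Arntl split, the difference between treated and vehicle-treated mutants was computed as a description, since each cell holds only 2 or 3 mice. In C151S mice, Hsd3b5 differed by -1.40 on the log2 scale in the low set and -1.70 in the high set, and Selenbp2 by -1.98 and -1.46. In Nrf2-knockout mice, Hsd3b5 differed by -0.80 in the low set and -4.23 in the high set, and Selenbp2 by -1.12 and -2.29. The sign was the same on both sides for Hsd3b5 and Selenbp2, and also for Elovl3, Mup20 and Cyp4a12a. Socs2 changed sign in both mutants, at 0.53 and -1.08 in C151S and 0.81 and -0.78 in Nrf2-knockout mice in the low and high set. Igfals did so too, at 0.19 and -0.063 in C151S and 0.23 and -0.26 in Nrf2-knockout mice. In C151S mice the sign also differed for Mup21 (-0.72 and 0.12) and Mup3 (-0.61 and 0.026), and in Nrf2-knockout mice for Igf1 (0.14 and -0.046).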

How the data were processed

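Liver RNA-seq of 30 male mice in 6 groups of 5 was analysed. The authors assessed read quality with fastp without removing reads, aligned them to mm10 with STAR 2.7.7 against GENCODE M23, and deposited raw counts of second-strand reads per gene, which are not normalised. Reads with more than 1 position (10.5 to 16.9% per library) were not counted. The authors' edgeR 3.36.0 model had a term for the date of isolation. The labels give no such date, so the term could not be fitted here. Whether the date relates to the Arntl split or to the wide spread of the mutant groups was not tested.

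Counts were tested with edgeR 4.0.16 in R 4.3.3 (filterByExpr, TMM scaling, quasi-likelihood F-test, Benjamini-Hochberg adjustment over all genes tested). A pair of groups was fitted alone, the mean mutant response on the 20 mutant libraries, and the differences between responses on all 30. Calls needed an FDR under 0.05 and, except for the differences between responses, a log2 fold change of 0.5 or more in either direction. Levels are CPM, and log2 CPM has a prior count of 2. Intervals are 95%. Correlations used 100000 permutations within groups. A count of 3, the detection floor, equals 0.0713 to 0.127 CPM, and counting error is small beside the spread between mice. DESeq2 1.42.0, other scalings and filters, the replicate number, the side of the Arntl split, and leaving out each mouse were tried as alternatives. The scripts were tested on simulated data. Promoters and their motifs were read from RefSeq (GRCm38.p6), gene positions from GENCODE. Nothing but the label of each mouse marks it as separate, so p-values measure the spread between these mice. The genes and lists were chosen with earlier results of these data known. The rule for genes named took the 10, Nfe2l2, Keap1, Arntl, the receptor pathway and the NRF2 targets, up to 6 called genes of each list by lowest p, exceptions to a count, the Mup family, and the 5 genes most and the 5 least like Hsd3b5. Not every gene that the rule allows is printed, and 1 result is not reported here.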

Additional observations from a re-analysis of the deposited data

Results flagged for a closer look

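A mouse was singled out where its gap to the nearest of its 5-mouse group exceeded 0.710 of the group's range (Dixon's 95% criterion). Of the 60 groups of 10 genes, 6 had such a mouse, and chance flags about 1 in 20.

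Selenbp2 had 162.54 CPM in C151S mouse 3 with CDDO-Me, where the next value was 77.3 CPM. It had 709.3 CPM in Nrf2-knockout mouse 1 with CDDO-Me, where the next was 145.4 CPM. The same mouse had 189.4 CPM of Cyp4a12a, where the next was 61.8 CPM. Mup3 had 8934.2 CPM in C151S mouse 4 with vehicle, above the next 4714.7 CPM, and 5719.6 CPM in wild-type mouse 2 with vehicle, below the next 7928.8 CPM. Mup20 had 1063.5 CPM in C151S mouse 4 with CDDO-Me, where the next was 994.55 CPM.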

How the results depend on the processing

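Apart from the fits that left out a mouse, 700 values of single genes were counted as unchanged under an alternative. Where a value had a test, unchanged meant the same direction and the same side of the threshold. For the differences within each side of the Arntl split, it meant a shift smaller than the spread within groups. Some of those changed sign, as given above. Among values with a test, 10 newly passed the threshold, 9 no longer passed it and 6 changed sign. Of the values without a test, 5 moved. Of the counts of genes, 94 stayed within 1.5 times and 9 did not. With DESeq2, 3 of the 10 genes were called lower in the C151S response (0 with edgeR) and 2 in C151S against wild-type mice after CDDO-Me (1 with edgeR). With the side of the Arntl split as a covariate, 7 (from 4) were called lower in vehicle-treated C151S mice and 1 (from 2) in vehicle-treated Nrf2-knockout mice. In 1 fit of all 30 libraries, 0 (from 5) were called lower in the wild-type response, 1 (from 4) in vehicle-treated C151S mice and 0 (from 1) in C151S mice after CDDO-Me. That fit shares the spread of the wider mutant groups. For the other settings the cause was not tested.

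The replicate number as a block gave 2 (from 1) in C151S and 1 (from 2) in Nrf2-knockout against wild-type mice after CDDO-Me, and changed no other count by over 1.5 times. With it, the wild-type minus Nrf2-knockout difference was 0.0328 for Hsd3b5 and -0.0652 for Elovl3, both of opposite sign. Same-numbered mice correlated above 0.1 in 2 of 5 pairs in C151S, 3 in Nrf2-knockout and 1 in wild-type mice, with mean correlations of 0.047, 0.19 and 0.0060 beside -0.014, -0.048 and -0.00016 for other pairs. The labels do not say what the number marks, and since not every pair was above 0.1 the mice were not treated as paired. Not every mouse correlated best with its own number in any genotype. Signs also turned, in values that were never called, for Socs2 (0.0745) and Igfals (0.0276) in vehicle-treated Nrf2-knockout mice with upper-quartile scaling. With the Arntl covariate they turned for Socs2 (0.53) in the same comparison and for Elovl3 (-0.38) in the wild-type minus Nrf2-knockout difference.

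Leaving out each mouse in turn gave counts of 4 to 6 in the wild-type response, 0 in both mutants, their mean and all 3 differences between responses, 3 to 7 and 1 to 3 in vehicle-treated C151S and Nrf2-knockout mice, and 1 to 3 and 1 to 4 after CDDO-Me. Some values that were not called changed sign. For the C151S response, the range was -0.47 to 0.0801 (Mup3), -0.52 to 0.0110 (Mup21). For the Nrf2-knockout response, the range was -0.88 to 0.00813 (Mup21), -0.14 to 0.36 (Socs2), -0.0993 to 0.18 (Igfals). For the wild-type minus C151S response, the range was -0.90 to 0.39 (Elovl3), -0.0238 to 0.0854 (Igf1), -0.37 to 0.11 (Socs2), -0.40 to 0.15 (Mup3), -0.0101 to 0.20 (Cyp4a12a), -0.25 to 0.00977 (Mup20). For the wild-type minus Nrf2-knockout response, the range was -0.90 to 0.32 (Elovl3), -0.10 to 0.42 (Mup3), -0.18 to 0.86 (Cyp4a12a), -0.71 to 0.60 (Hsd3b5), -1.73 to 0.00606 (Selenbp2), -0.62 to 0.25 (Mup20), -0.77 to 0.12 (Mup21), -0.25 to 0.0283 (Igfals). For vehicle-treated Nrf2-knockout against wild-type mice, the range was -0.32 to 0.26 (Socs2), -0.15 to 0.0318 (Igfals).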
